A study of Mus musculus with 6 samples.

Results

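Transcripts of 8 genes that write, maintain, oxidise or protect DNA methylation were measured in mouse embryonic stem (ES) cells after knockdown of Lin28a: Dnmt1, Dnmt3a, Dnmt3b, Dnmt3l, Uhrf1, Tet1, Tet2 and Dppa3. They were chosen by name, as every probe set annotated with 1 of these symbols alone. This gave 11 probe sets, called rows from here on, of 21797 rows with 1 symbol, and 8 of 19946 genes. Tet1 had 3 rows, Dppa3 had 2 and the other genes had 1 each. The cells were the line A3-1, grown with serum and LIF, and 6 Affymetrix arrays were made from total RNA. The groups were cells given a small interfering RNA (siRNA) against Lin28a (siLin28a), cells given a control siRNA directed at green fluorescent protein (siGFP) and untreated cells, with 2 arrays in each. Both siRNAs were left on for 48 h, and each siRNA group received 1 duplex, so an effect of that duplex on other transcripts and an effect of losing Lin28a cannot be told apart. No genotype is labelled for the line.

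In mammals a methyl group is placed on cytosine mainly where it is followed by guanine (CpG). Dnmt3a and Dnmt3b are the de novo methyltransferases, and Dnmt3l is a cofactor without catalytic activity that binds and stimulates them. Dnmt1 copies the pattern onto the new strand after replication, and Uhrf1 recruits it to hemimethylated sites. Tet1 and Tet2 are dioxygenases that oxidise 5-methylcytosine, a step on the way to its removal. Dppa3, also called Stella or PGC7, protects the maternal genome of the zygote from this oxidation and interferes with Uhrf1. Mouse ES cells in serum express most of this machinery, and high Dnmt3b is a known mark of the epiblast after implantation.

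The siRNA duplex against Lin28a is shown because it is the agent that sets the siLin28a arrays apart. Both strands are given in the order of the labels, without their 3′ deoxythymidine overhangs, and all 19 bases of each pair with the other. The labels do not name the strand that guides silencing.
siLin28a strand 1: gcagaagcgaagauccaaa
siLin28a strand 2: uuuggaucuucgcuucugc

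The promoters of Dnmt3b and Tet2 are shown because these genes had the highest and the lowest fold change of the 8 in siLin28a cells. They are the 250 bases before the transcription start from RefSeq (GRCm38.p6), with every CpG in capitals. The window of Dnmt3b is chr2:153649199-153649448 on the plus strand and that of Tet2 is chr3:133544391-133544640 on the minus strand.
Dnmt3b promoter: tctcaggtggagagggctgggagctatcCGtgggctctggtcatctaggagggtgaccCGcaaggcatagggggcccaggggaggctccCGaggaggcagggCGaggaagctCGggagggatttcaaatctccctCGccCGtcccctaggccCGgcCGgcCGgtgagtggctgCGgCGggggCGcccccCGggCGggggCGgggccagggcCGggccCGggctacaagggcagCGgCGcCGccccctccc
Tet2 promoter: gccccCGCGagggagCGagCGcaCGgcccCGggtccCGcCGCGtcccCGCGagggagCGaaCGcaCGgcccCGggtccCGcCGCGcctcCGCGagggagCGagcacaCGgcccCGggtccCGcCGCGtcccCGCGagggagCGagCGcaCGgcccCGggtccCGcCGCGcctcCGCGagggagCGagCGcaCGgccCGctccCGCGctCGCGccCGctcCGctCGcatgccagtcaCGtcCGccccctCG

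The Dnmt3b window held 21 CpGs, more than 83.7% of the 32851 promoter windows in the table. The Tet2 window held 51, more than 99.9% of them, and the median window held 6. The Tet2 sequence repeated itself: shifted by 42 bases, 77.9% of 208 compared bases were identical. The GC box GGGCGG, a site for Sp1-like factors, was found on either strand at 3 places in the Dnmt3b window and at 1 in the Tet2 window, and 32.7% of all windows held it. Neither window held the E-box CACGTG (6.02% of all windows) or the LEF/TCF core CTTTGA (13.8% of all windows). Of the 8 genes, 7 had at least 1 promoter in that table and Dppa3 had none. The 3 alternative promoters of Dnmt3l held 5, 4 and 3 CpGs, below the median window but more than 44.4%, 37.8% and 29.0% of all windows.

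All values below are log2 expression as deposited, in steps of 0.1. The array medians over all 35556 rows lay between 5.2 and 5.3. Lin28a, the target, was at 7.4 in each siLin28a array, against 9.1 and 9.4 in the siGFP and likewise in the untreated arrays. The 12 ES cell markers, Lin28a included, averaged 10.1 and 10.2 in the siLin28a arrays, 10.4 and 10.7 in the siGFP arrays, and 10.5 and 10.6 in the untreated arrays. All 12 were lower in siLin28a than in siGFP cells, with a median log2 fold change of −0.28. That median was 0.00 for all rows and −0.05 for rows with a mean of at least 6. Lin28a, the target of the siRNA, was at −1.85, and the other markers ran from −0.70 to −0.10. Arrays did not overlap for 7 of the 12 (11.8% of all rows), Lin28a among them. The knockdown itself lowers Lin28a, so the target adds to the fall of the average and to both counts. Marker averages for primitive endoderm, mesoderm and definitive endoderm, neural ectoderm and trophoblast lay between 4.96 and 5.64 in every array, and those for fibroblasts between 6.31 and 6.50. Those for primordial germ cells lay between 7.22 and 7.57. Of these 9 markers, 6 were lower in siLin28a than in siGFP cells, 2 higher and 1 equal, with a median of −0.25. Their arrays did not overlap for 4 lower genes (11.8% of all rows) and 1 higher gene (9.03% of all rows). The part of the lower ES marker level in the results below was not tested. In these bulk samples fewer cells of a type and less RNA per cell cannot be told apart.

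Differences were tested with limma over all 23410 rows with a gene, with Benjamini-Hochberg adjustment and a threshold of 0.05. No row passed in any of the 3 comparisons, the target Lin28a included (log2 fold change −1.85 against siGFP, adjusted p 0.512 by limma). The genes are therefore described by their values, and "higher" and "lower" refer to those. A fold change is a difference of group means on the log2 scale, given with limma's standard error (SE) and n = 2 arrays per group. Intervals are unadjusted 95% intervals from the same fit.

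Across the 8 genes, Dnmt3b stood higher and Tet2 lower in siLin28a cells than in both other groups, with no overlap between arrays. Dnmt3l was highest in siLin28a cells, intermediate in siGFP cells and lowest in untreated cells. The maintenance genes Dnmt1 and Uhrf1 kept within 0.3 log2 units over all 6 arrays, and the 3 rows of Tet1 within 0.4. Dnmt3a was lowest and Dppa3 highest in siGFP cells.

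**Figure D1:**
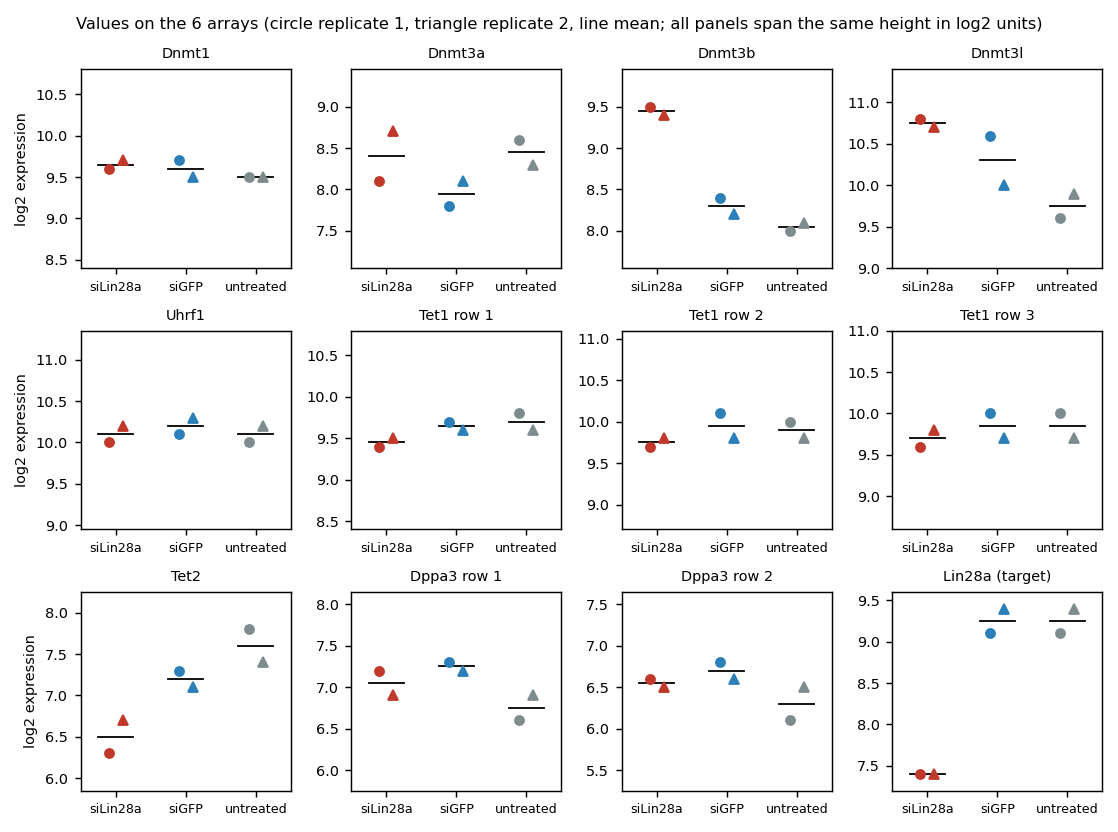
Log2 expression (y axis, panels of equal height around their own mid-level) of the 11 rows and of the target Lin28a on the 6 arrays, by group (x axis), with circles for replicate 1, triangles for replicate 2 and a line for the mean. The siLin28a arrays lie above all others for Dnmt3b (9.5 and 9.4) and below all others for Tet2 (6.3 and 6.7).

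Dnmt3b had values of 9.5 and 9.4 in the siLin28a arrays, 8.4 and 8.2 in the siGFP arrays, and 8.0 and 8.1 in the untreated arrays. Both siLin28a arrays were at least 1 log2 unit above every other array, and within each group the 2 arrays were at most 0.2 apart. The log2 fold change was 1.15 against siGFP (SE 0.13, interval 0.84 to 1.46), a 2.22-fold higher level, with an adjusted p of 0.723 by limma. Against untreated cells it was 1.40 (SE 0.13, interval 1.09 to 1.71), 2.64-fold, with an adjusted p of 0.171 by limma. By unadjusted p, Dnmt3b ranked 1 of the higher rows in the first comparison and 2 in the second. SiGFP cells were above untreated cells by 0.25 (SE 0.13, interval −0.06 to 0.56), and these neighbours in the order did not differ beyond that interval. With a robust prior the adjusted p by limma was 0.0857 against siGFP and 0.0240 against untreated cells, and after cyclic loess 0.168 and 0.0486. Over its 16 alternatives the adjusted p by limma ran from 0.0857 to 0.982 against siGFP and from 0.0240 to 0.942 against untreated cells.

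Dnmt3l, the cofactor of the de novo enzymes, had 10.8 and 10.7 in the siLin28a arrays, 10.6 and 10 in the siGFP arrays, and 9.6 and 9.9 in the untreated arrays. The 3 groups did not overlap, but the gap between siLin28a and siGFP came mostly from siGFP replicate 2, since siGFP replicate 1 lay within 0.2 of the siLin28a arrays. The log2 fold change was 0.45 against siGFP (SE 0.22, interval −0.09 to 0.99, adjusted p 0.953 by limma). It was 0.15 without siGFP replicate 2 and 0.75 without siGFP replicate 1. Against untreated cells it was 1.00 (SE 0.22, interval 0.46 to 1.54), 2-fold, with an adjusted p of 0.597 by limma. Of that difference 0.55 (SE 0.22, interval 0.01 to 1.09) stood between siGFP and untreated cells.

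Dnmt3a, the other de novo enzyme, had another order of groups than Dnmt3b, with 8.1 and 8.7 in the siLin28a arrays, 7.8 and 8.1 in the siGFP arrays, and 8.6 and 8.3 in the untreated arrays. The 2 siLin28a arrays lay on either side of both untreated arrays, and the lower one met siGFP replicate 2 at 8.1. The log2 fold change was 0.45 against siGFP (SE 0.24, interval −0.12 to 1.02) and −0.05 against untreated cells (SE 0.24, interval −0.62 to 0.52). Against siGFP it was 0.75 without siLin28a replicate 1 and 0.15 without siLin28a replicate 2. Both siGFP arrays lay below both untreated arrays, with a log2 fold change of −0.50 (SE 0.24, interval −1.07 to 0.07, adjusted p 0.961 by limma).

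The maintenance pair was nearly level. Dnmt1 had 9.6 and 9.7 in the siLin28a arrays, 9.7 and 9.5 in the siGFP arrays, with 9.5 in each untreated array. Its log2 fold change was 0.05 against siGFP (SE 0.13, interval −0.26 to 0.36) and 0.15 against untreated cells (SE 0.13, interval −0.16 to 0.46). Uhrf1 had 10 and 10.2 in the siLin28a arrays, 10.1 and 10.3 in the siGFP arrays, and 10 and 10.2 in the untreated arrays, with all groups overlapping. Its log2 fold change was −0.10 against siGFP (SE 0.15, interval −0.46 to 0.26) and 0.00 against untreated cells (SE 0.15, interval −0.36 to 0.36). These intervals leave room for differences of up to 0.46 in either direction, smaller than the Dnmt3b difference.

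Tet2 had 6.3 and 6.7 in the siLin28a arrays, 7.3 and 7.1 in the siGFP arrays, and 7.8 and 7.4 in the untreated arrays. The 3 groups did not overlap, in the reverse of the order of Dnmt3b and Dnmt3l. The log2 fold change was −0.70 against siGFP (SE 0.20, interval −1.19 to −0.21), a level 1.62-fold lower, with an adjusted p of 0.953 by limma. It was −0.50 without siLin28a replicate 1 and −0.90 without siLin28a replicate 2. Against untreated cells it was −1.10 (SE 0.20, interval −1.59 to −0.61), 2.14-fold lower, with an adjusted p of 0.535 by limma. SiGFP cells were 0.40 below untreated cells (log2 fold change −0.40, SE 0.20, interval −0.89 to 0.09), with only 0.1 between siGFP replicate 1 and untreated replicate 2.

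The arrays of Tet1 lay close together. Its first row (10369688) had 9.4 and 9.5 in the siLin28a arrays, 9.7 and 9.6 in the siGFP arrays, and 9.8 and 9.6 in the untreated arrays, the siLin28a arrays being lowest by 0.1. The second row (10369690) had 9.7 and 9.8 in the siLin28a arrays, 10.1 and 9.8 in the siGFP arrays, and 10 and 9.8 in the untreated arrays. The third (10369702) had 9.6 and 9.8 in the siLin28a arrays, 10 and 9.7 in the siGFP arrays, and 10 and 9.7 in the untreated arrays. Only the first row had groups that did not overlap, and the log2 fold changes against siGFP were −0.20, −0.20 and −0.15 (SE 0.13, 0.15 and 0.17). All 3 rows are annotated with the same transcripts, so they are readings of 1 gene and not replicates. Tet3, the remaining member of the family, was outside the 8 genes and had 5.2 and 5.5 in the siLin28a arrays, 4.8 and 5.8 in the siGFP arrays, with 5.0 in each untreated array in its brighter row.

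Dppa3 averaged higher in both siRNA groups than in untreated cells. Its brighter row (10541515) had 7.2 and 6.9 in the siLin28a arrays, 7.3 and 7.2 in the siGFP arrays, and 6.6 and 6.9 in the untreated arrays. The second row (10604135) had 6.6 and 6.5 in the siLin28a arrays, 6.8 and 6.6 in the siGFP arrays, and 6.1 and 6.5 in the untreated arrays. The siGFP arrays lay above the untreated arrays in each, with log2 fold changes of 0.50 (SE 0.16, interval 0.10 to 0.90) and 0.40 (SE 0.17, interval −0.01 to 0.81), and the adjusted p was 0.961 for each by limma. In both rows the siLin28a arrays shared 1 value with each of the other groups, and the difference from siGFP was −0.20 and −0.15 (SE 0.16 and 0.17). The 2 rows carry the same accessions and cannot be assigned to separate copies of the gene here.

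**Figure D2:**
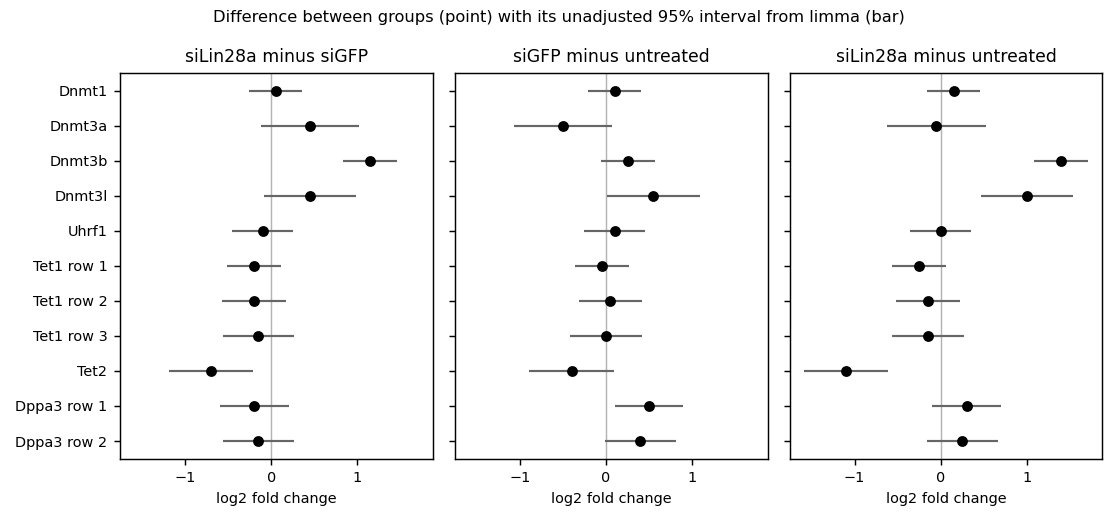
Log2 fold change (x axis, points) with its unadjusted 95% interval from limma (bars) for the 11 rows (y axis) in the 3 comparisons. In siLin28a minus siGFP the intervals of Dnmt3b (0.84 to 1.46) and Tet2 (−1.19 to −0.21) leave out 0, and in siGFP minus untreated those of Dnmt3l and the brighter Dppa3 row do.

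Set against all rows, the counts were as follows, with each gene represented by its brightest row. In siLin28a against siGFP, 0 of 8 genes passed the adjusted threshold by limma, as did 0 of 23410 rows (0%). At an unadjusted p under 0.05, 1 of 8 was higher (Dnmt3b), where 1.79% of all rows were, and 1 was lower (Tet2), where 2.26% of all rows were. Arrays did not overlap for 2 higher genes, Dnmt3b and Dnmt3l (9.03% of all rows), and for 1 lower gene, Tet2 (11.8% of all rows). Dnmt3b was 1 of 13 rows that were at least 2-fold higher (0.0555% of all rows), and none of the 8 was at least 2-fold lower (0.0299% of all rows).

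In siLin28a against untreated cells, 0 of 8 genes passed, beside 0% of all rows by limma. Dnmt3b and Dnmt3l were higher at an unadjusted p under 0.05 (2.89% of all rows) and Tet2 was lower (3.55% of all rows). The first 2 were among 30 rows at least 2-fold higher (0.128% of all rows), and Tet2 was among 27 rows at least 2-fold lower (0.115% of all rows). Dnmt1 joined Dnmt3b and Dnmt3l among the higher genes whose arrays did not overlap (11.1% of all rows), by 0.1 log2 units, and Tet2 was the 1 such lower gene (12.6% of all rows). This comparison shares its siLin28a arrays with the one before, so the 2 are not independent readings.

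Differences that went with the control siRNA were read from siGFP against untreated cells. Again 0 of 8 genes and 0% of all rows passed by limma. Dnmt3l and Dppa3 were higher at an unadjusted p under 0.05 (2.19% of all rows), and no gene of the 8 was lower (1.33% of all rows). Arrays did not overlap for Dnmt3b, Dnmt3l and Dppa3 among the higher genes (9.22% of all rows) and for Dnmt3a and Tet2 among the lower (8.46% of all rows). These are 5 of 8 genes, with log2 fold changes between −0.50 and 0.55, and none was at least 2-fold higher (0.0513% of all rows) or lower (0.0171% of all rows). This comparison shares its siGFP arrays with the first, in which they enter with the opposite sign.

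**Figure D3:**
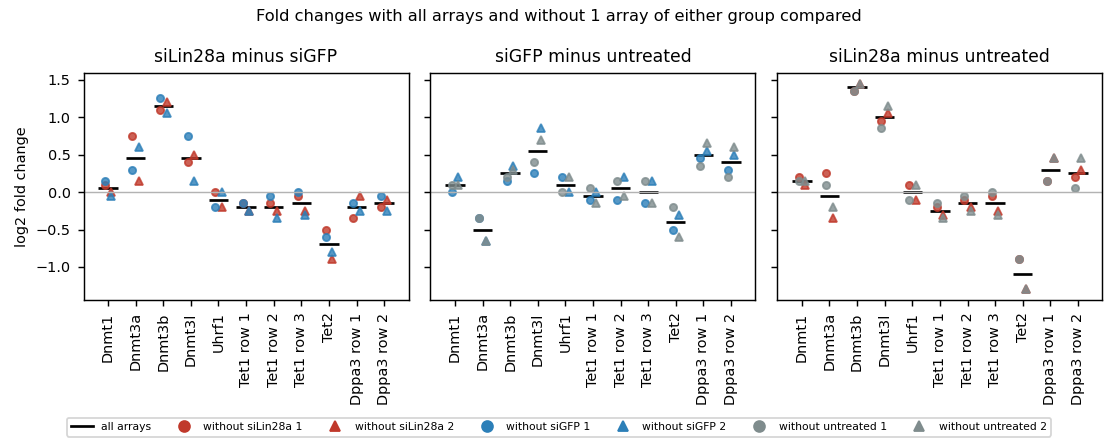
Log2 fold change (y axis) of the 11 rows (x axis) in the 3 comparisons with all arrays (black line) and without 1 array of either group compared (circles without replicate 1, triangles without replicate 2, coloured by the group that lost the array). Dnmt3b stays between 1.05 and 1.25 against siGFP and Tet2 between −0.90 and −0.50, while Dnmt3a and Dnmt3l each run from 0.15 to 0.75.

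Genes with the most similar course were sought for Dnmt3b, Dnmt3l and Tet2, whose 6 values spanned at least 1 log2 unit. Likeness was the root mean square difference between values centred on each gene's mean over the 6 arrays, among 17513 other genes. Because all genes were read on the same 6 arrays, the likeness is a description and carries no test.

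Nearest to Dnmt3b was Lef1, which binds DNA in Wnt signalling, at a root mean square difference of 0.137 log2 units (Pearson r 0.975 over 6 arrays). Lef1 had 8.0 and 8.2 in the siLin28a arrays, 7.3 and 7.0 in the siGFP arrays, and 6.8 and 6.7 in the untreated arrays. It was followed by Vrtn (0.180), Bcl11a, a zinc-finger repressor known from globin switching (0.195), Cachd1 (0.197) and Car4, a carbonic anhydrase (0.2). All 5 had both siLin28a arrays above the 4 others, a step that a search for genes like Dnmt3b selects for.

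For Dnmt3l the nearest genes were the lens crystallin gene Cryga and Foxh1, the partner of SMAD proteins in Nodal signalling, each at 0.149 (Pearson r 0.990 over 6 arrays). Foxh1 had 7.2 in each siLin28a array, 7.0 and 6.6 in the siGFP arrays, and 6.4 and 6.6 in the untreated arrays, with siGFP replicate 2 at the level of untreated replicate 2. Dnah8, an axonemal dynein heavy chain, followed at 0.160, Podxl, a cell-surface sialomucin, at 0.161 and Jph1, a junctophilin, at 0.170.

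Tet2 had closer neighbours. Slco4c1, an organic anion transporter, lay at 0.0898 (Pearson r 0.991 over 6 arrays) and Ptpn4, a tyrosine phosphatase, at 0.0943 (r 0.992). Ptpn4 had 6.4 and 6.7 in the siLin28a arrays, 7.2 and 7.0 in the siGFP arrays, and 7.7 and 7.2 in the untreated arrays. Kbtbd8, an adaptor of a ubiquitin ligase, followed at 0.115, Ssxb3 at 0.134 and Dmxl1 at 0.141. Ssxb3 had values between 1.6 and 2.8, below the array medians of 5.2 to 5.3 over all rows, and at such low levels its course says little.

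**Figure D4:**
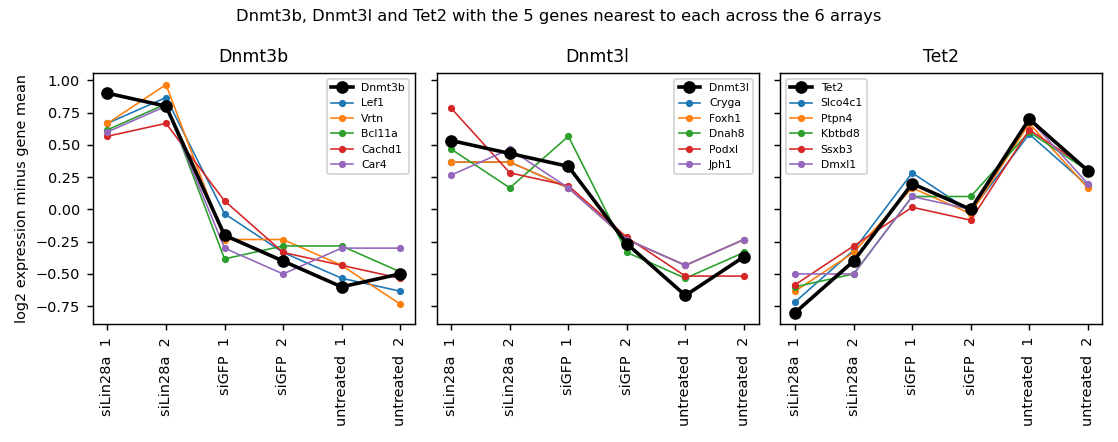
Log2 expression minus the gene's mean over the 6 arrays (y axis) for Dnmt3b, Dnmt3l and Tet2 (black) and the 5 genes nearest to each (colours) on each array (x axis). The course of Dnmt3b steps down between the siLin28a and siGFP arrays, and that of Tet2 climbs over all 3 groups, with Ptpn4 within 0.0943 of it (root mean square).

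Other genes of the pathway were read from lists chosen by function. Of the maintenance and targeting partners, 15 of 19 measured genes were lower in siLin28a than in siGFP cells, 2 were higher and 2 were equal, with a median log2 fold change of −0.15. The median was 0.00 for all rows and −0.05 for rows with a mean of at least 6, and this list averaged between 8.98 and 9.31 on the 6 arrays. None passed by limma. At an unadjusted p under 0.05, 1 of 19 was lower (2.26% of all rows) and 0 were higher (1.79% of all rows). Arrays did not overlap for 7 lower genes (11.8% of all rows) and for 0 higher genes (9.03% of all rows). The values were small, and the genes with the lowest among those whose arrays did not overlap were Zfp57, which keeps imprints methylated, and the histone deacetylase Hdac2. Zfp57 had 10.1 and 10.2 in the siLin28a arrays against 10.5 in each siGFP array (log2 fold change −0.35, SE 0.14), and Hdac2 had 9.7 and 9.9 in the siLin28a arrays against 10.1 and 10.2 in the siGFP arrays (−0.35, SE 0.19). Against untreated cells Kdm2b, a CpG-binding histone demethylase, was at 0.45 (SE 0.14) and the tRNA methyltransferase Trdmt1 at −0.45 (SE 0.13).

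Among 18 measured genes of active demethylation and TET partners, 12 were lower in siLin28a than in siGFP cells, 5 were higher and 1 was equal, with a median of −0.18. The median was 0.00 for all rows and −0.05 for rows with a mean of at least 6. None of the 18 passed by limma. At an unadjusted p under 0.05, 0 of 18 were lower (2.26% of all rows) and 1 was higher (1.79% of all rows), and arrays did not overlap for 6 lower genes (11.8% of all rows) and 1 higher gene (9.03% of all rows). That 1 was the stress-inducible gene Gadd45g, with 6.2 and 6.4 in the siLin28a arrays against 6.0 and 5.2 in the siGFP arrays (log2 fold change 0.70, SE 0.26). Its relative Gadd45a had 7.5 and 8.0 in the siLin28a arrays against 8.1 and 8.4 in the siGFP arrays (−0.50, SE 0.22). In siGFP against untreated cells 13 of the 18 were higher and 3 lower, with a median of 0.10 beside 0.00 for all rows. Arrays did not overlap for 5 higher genes (9.22% of all rows) and 0 lower genes (8.46% of all rows). Among the higher were Idh2, the mitochondrial isocitrate dehydrogenase, at 0.45 (SE 0.15) and Gadd45b at 0.35 (SE 0.14). In siLin28a against untreated cells the direction of the list was not kept, with 11 of the 18 higher, 7 lower and a median of 0.05. The glycosylase Mbd4 was at −0.40 (SE 0.18) in that comparison.

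The readers of methylated DNA and the methyl donor genes were centred near 0. Of 7 readers 4 were lower and 2 higher in siLin28a than in siGFP cells (median −0.05), and of 12 methyl donor genes 6 were lower and 4 higher (median −0.03). None passed by limma, and none had an unadjusted p under 0.05 in any of the 3 comparisons. The methyl-CpG binding zinc-finger gene Zbtb38 was at −0.25 (SE 0.14). Mthfd2, a mitochondrial folate enzyme, was at −0.40 (SE 0.18), and Gnmt, a glycine methyltransferase, at 0.30 (SE 0.14).

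Genes whose promoters are known to be silenced by DNA methylation in somatic cells, and imprinted genes, had medians of 0.00. The germline list averaged between 5.06 and 5.16 on the 6 arrays, below the array medians of 5.2 to 5.3 over all rows. At such low levels its median says little about silencing. The imprinted genes averaged between 6.7 and 6.8. Of 25 germline genes 12 were higher, 10 lower and 3 equal in siLin28a against siGFP, with 0 past the threshold by limma. At an unadjusted p under 0.05, 2 were higher (1.79% of all rows) and 1 was lower (2.26% of all rows). Arrays did not overlap for 8 higher genes (9.03% of all rows) and 3 lower genes (11.8% of all rows). Mael, of the piRNA pathway, was at 0.65 (SE 0.21), and the RNA-binding germ cell gene Dazl at −0.35 (SE 0.13). Dazl had 5.1 in each siLin28a array, 5.4 and 5.5 in the siGFP arrays, and 5.8 and 5.6 in the untreated arrays. Of 40 imprinted genes 19 were higher, 17 lower and 4 equal, with 0 past the threshold by limma. At an unadjusted p under 0.05, 1 was higher (1.79% of all rows) and 3 were lower (2.26% of all rows), and arrays did not overlap for 4 higher genes (9.03% of all rows) and 6 lower genes (11.8% of all rows). Cdkn1c, a cell cycle inhibitor expressed from the maternal allele, had 7.3 and 7.4 in the siLin28a arrays, 6.9 and 6.7 in the siGFP arrays, and 6.9 and 6.8 in the untreated arrays (0.55 against siGFP, SE 0.13). Plagl1, a paternally expressed zinc-finger gene, had 5.7 and 5.5 in the siLin28a arrays, 6.3 and 6.0 in the siGFP arrays, and 6.3 and 6.5 in the untreated arrays (−0.55 against siGFP, SE 0.16).

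Transcription factors that act on these genes in ES cells gave wider values. Of 21 measured, 16 were lower and 5 higher in siLin28a than in siGFP cells, with a median of −0.20. The median was 0.00 for all rows and −0.05 for rows with a mean of at least 6, and this list averaged between 8.51 and 8.81. Of the 10542 rows with a mean of at least 6, 359 were lower and 84 higher at an unadjusted p under 0.05 by limma. None of the 21 passed by limma. At an unadjusted p under 0.05, 6 of 21 were lower (2.26% of all rows) and 3 were higher (1.79% of all rows), and arrays did not overlap for 9 lower genes (11.8% of all rows) and 3 higher genes (9.03% of all rows). Prdm14, which represses Dnmt3b and Dnmt3l in mouse ES cells, had 6.4 and 6.8 in the siLin28a arrays, 7.2 and 7.6 in the siGFP arrays, with 7.4 in each untreated array (log2 fold change −0.80 against siGFP, SE 0.19). Tbx3, a factor of naive ES cells, was at −1.15 (SE 0.13) and Zic2, a factor of primed cells, at 1.25 (SE 0.26) in siLin28a against siGFP. These were the lowest and the highest value of the list. Lef1, also on this list, was at 0.95 (SE 0.15). Zic2 had 8.5 and 8.1 in the siLin28a arrays against 7.4 and 6.7 in the siGFP arrays. Klf4 was at −0.75 (SE 0.18) and Tfcp2l1 at −0.70 (SE 0.22). Values were smaller for Esrrb (−0.30, SE 0.15), Klf2 (−0.25, SE 0.16), Pou3f1 (0.40, SE 0.12) and Otx2 (0.15, SE 0.27). A shift between naive and primed states was not tested. These lists were chosen with earlier results of these data in view, so their directions are not independent evidence.

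**Figure D5:**
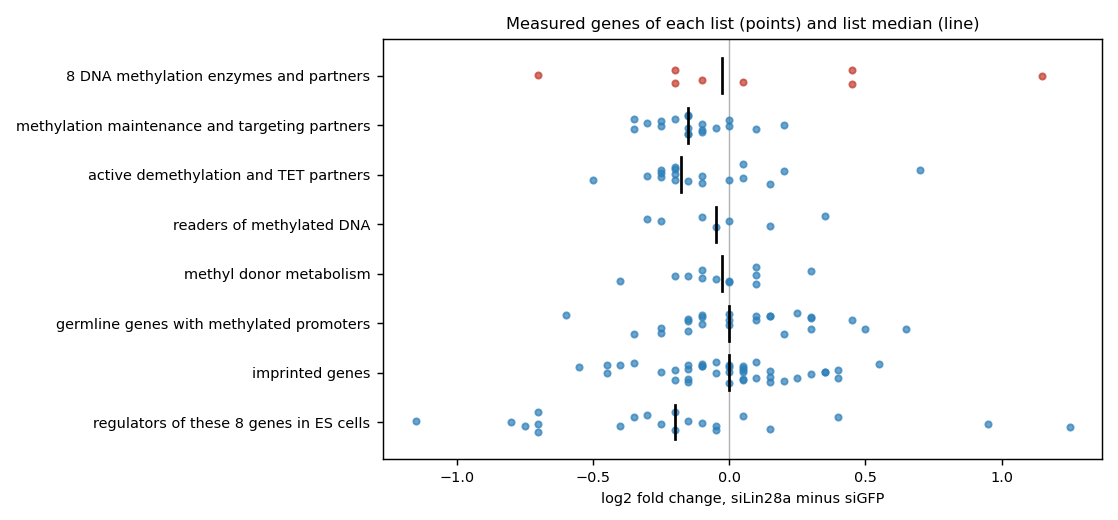
Log2 fold change in siLin28a minus siGFP (x axis) of each measured gene (points, moved up or down at random for legibility) in 8 gene lists (y axis), with the list median as a black line. The 8 DNA methylation genes run from −0.70 (Tet2) to 1.15 (Dnmt3b) with a median of −0.03, and the regulators from −1.15 to 1.25.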

How the data were processed

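Per the submitters' processing notes, the authors made the values with Affymetrix Expression Console and RMA, and the deposited table holds log2 expression for 35556 probe sets on 6 arrays, rounded to steps of 0.1. No version, library file or genome build is given in the sources used here. Precision is limited by the number of arrays. Whether both arrays of a group come from separate cultures is not labelled, so a p-value covers only the spread between them, which may be technical.

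Rows were named from the platform's annotation: 23410 rows carried a gene and were tested, of which 21797 had 1 symbol and 1613 several. All 6 arrays were fitted in 3 groups with limma 3.58.1 under R 4.3.3 (two-sided moderated test), with 3 residual and 3.19 prior degrees of freedom, adjusted by Benjamini-Hochberg over 23410 rows. The fit was tested on simulated data with a shift larger than any fold change described here. That test therefore does not show how often differences of the sizes seen would pass. Each listed gene was represented by its brightest row.

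The 8 genes, the lists and their rules were chosen with earlier results of these data known. All rows of the 8 genes are described. From each list, up to 2 genes per direction with the largest fold change among those whose arrays did not overlap could be named, plus the 5 nearest genes where values spanned at least 1. Klf4, Klf2, Esrrb, Pou3f1 and Otx2 were named outside this rule, and the arrays of Otx2 overlapped in each comparison. A planned comparison of protein sequences was not run. Alternatives were another prior, scaling, filter, set of rows or arrays, the replicate number as a block, a pooled control and leaving out each array.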

Additional observations from a re-analysis of the deposited data

How the results depend on the processing

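The count of rows past the threshold by limma was 0 in each comparison. With a robust prior it was 1 in siLin28a against siGFP and 7 in siLin28a against untreated cells, and after cyclic loess it was 1 and 5; in all 4 cases Lin28a was among them, and Dnmt3b was among the 7 and the 5. The other alternatives, including leaving out each array, gave 0 calls. Among the 8 genes, Dnmt3a against untreated cells turned from −0.05 to 0.042 with a further quantile normalization, 0.044 after cyclic loess and 0.20 against the mean of both control groups. Both Dppa3 rows turned to 0.05 in siLin28a against that mean. Without 1 array, Dnmt1 ran from −0.05 to 0.15 in siLin28a against siGFP, Tet1 rows 10369688 and 10369690 from −0.15 to 0.05 and from −0.10 to 0.20 in siGFP against untreated cells, and Dnmt3a from −0.35 to 0.25 in siLin28a against untreated cells. The cause was not tested. Dnmt3b, Dnmt3l and Tet2 kept their direction under every alternative run in all 3 comparisons. Of 447 list medians recomputed under settings that kept both arrays of each group compared, 415 moved by no more than the spread between replicates. Many of these could not move. Another prior, testing all rows, fitting only the arrays compared and the replicate block leave the fold changes as they were. With rows of a mean under 6 left out, no mesoderm and definitive endoderm gene remained. Of rows at an unadjusted p under 0.05, 44.2%, 62.2% and 44.8% were higher in siLin28a against siGFP, siGFP against untreated and siLin28a against untreated cells. Aligning the array medians gave 23.6% and 84.6% in the first 2, and a further quantile normalization 59.0% in the last. With rows of a mean under 6 left out, the share was 18.96% in the first and 31.7% in the last. Over the alternatives that kept both arrays of each group, the number of rows at an unadjusted p under 0.05 varied. It ran from 84 to 597 higher and 359 to 866 lower in the first comparison. The ranges were 247 to 752 and 118 to 661 in the second, and 292 to 979 and 629 to 1273 in the third. These fits did not test the same number of rows. All lower ends came from the filter, with 10542 rows tested. The ends 661 and 1273 came from all 35556 rows, and the other fits tested 23410.

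Arrays with the same number deviated together at r = 0.357 across rows for siLin28a and siGFP, 0.154 for siGFP and untreated, and −0.035 for siLin28a and untreated. SiGFP replicate 1 correlated more closely with siLin28a replicate 1 (Pearson r 0.9946) than with siGFP replicate 2 (0.9931). Likewise siGFP replicate 2 was closest to siLin28a replicate 2 (0.9950). The labels do not say whether the numbers pair the samples. A factor shared by arrays of the same number was not tested, and the main fit takes no account of it. With the replicate block, 0 rows passed by limma in each comparison, and the adjusted p of Dnmt3b was 0.719 against siGFP and 0.507 against untreated cells.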
